A study of Mus musculus with 8 samples.

Results

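A set of 10 genes was followed in round spermatids of mice that differed at Piwil1, the gene of the PIWI protein MIWI. The genes regulate transcription in haploid male germ cells or act on its regulators. They are Crem, Fhl5, Kif17, Camk4, Tbpl1, Taf7l, Gtf2a1l, Rfx2, Sox30 and Sox5. They were chosen by name and function, with earlier results of these data known. All 10 were measured, among 19938 genes named by a single symbol on the array, and each was read on 1 transcript cluster, the array's unit for a gene. The clusters do not separate isoforms, so the activator and repressor forms of Crem, or the kinase of Camk4 and the shorter calspermin made from the same gene, were read together.

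The spermatids came from testes of adult C57BL/6 mice. The tubules were treated with collagenase, the cells were separated on an albumin gradient, and RNA was taken from the pooled round spermatid fractions. MIWI +/- mice had 1 wild-type and 1 null allele and served as the heterozygous control. MIWI -/- mice had only null alleles. MIWI +/KI mice had 1 knock-in allele beside a wild-type allele, and MIWI -/KI mice had 1 knock-in allele beside a null allele. No group had 2 wild-type alleles. The labels do not describe the null or the knock-in allele further; the study's title is about MIWI catalysis. Each genotype had 2 arrays, labelled as biological replicates, 8 in all. The sources used here do not say how many animals stood behind an array, and the p-values therefore reflect only how far these preparations vary. With 2 arrays a genotype, that number limits the precision. In such a bulk sample, fewer cells of a type and less RNA per cell cannot be told apart.

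CREM is a transcription factor of the cyclic AMP response family, and its activator form drives many postmeiotic genes in round spermatids. FHL5, also called ACT, is a LIM-domain coactivator of CREM in the testis; KIF17 is a kinesin whose testis form moves FHL5 out of the nucleus; CaMKIV, the product of Camk4, is a calcium- and calmodulin-dependent kinase of spermatid nuclei. TBPL1, TAF7L and GTF2A1L are germ cell relatives of the TATA-binding protein, of the TFIID subunit TAF7 and of the large TFIIA subunit. RFX2 binds X-box elements, and SOX30 and SOX5 are HMG-box factors of late germ cells. Without MIWI, spermatids do not develop past the round stage.

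Over all 35512 clusters, Pearson r of the log2 intensities lay between 0.970 and 0.995 within a genotype. The pair with the lowest r was MIWI -/KI. Its replicate 1 was less like its replicate 2 (r = 0.970) than like every array of the other genotypes (r between 0.9737 and 0.9885). MIWI -/- replicate 2 was less like its own replicate 1 (r = 0.9836) than like either MIWI +/KI array (r = 0.9855 and 0.9858). The results below are therefore given array by array. The 8 round spermatid markers measured, among them the acrosomal gene Acrv1, had a summed intensity between 14089 and 15064 in every array, although Tssk2 was called lower and Acr higher in MIWI -/- than in MIWI +/-. Piwil1 had an intensity of 389 and 371 in MIWI +/-, 196 and 151 in MIWI -/-, 672 and 696 in MIWI -/KI, and 680 and 749 in MIWI +/KI. The MIWI -/- arrays lay below all others. Piwil1 was called lower in MIWI -/- than in MIWI +/- (log2 difference -1.14, SE 0.17, adjusted p = 0.00771), a call that was lost without MIWI +/- replicate 1 (adjusted p = 0.0850) or replicate 2 (adjusted p = 0.0727). The position of its probes relative to the null allele is unknown here, so Piwil1 does not check the labels.

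Crem was among the steadier genes of the table. Its intensity was 854 and 931 in MIWI +/-, 835 and 881 in MIWI -/-, 875 and 1103 in MIWI -/KI, and 883 and 849 in MIWI +/KI. The genotypes overlapped throughout, and MIWI -/KI replicate 2 was the 1 array that stood above the rest. The highest array was 1.32-fold above the lowest, a smaller span than that of most genes, whose median was 1.47-fold. Against MIWI +/-, the log2 difference was -0.06 in MIWI -/- (SE 0.15, 95% interval -0.40 to 0.29, adjusted p = 0.958 by limma), 0.14 in MIWI -/KI (SE 0.15, interval -0.21 to 0.49, adjusted p = 0.781) and -0.04 in MIWI +/KI (SE 0.15, interval -0.39 to 0.30, adjusted p = 0.967). The intervals bound how far Crem could have moved, and do not show that it was equal. Over the 8 arrays the genes most like Crem in pattern, among 9955 brighter genes, were Gm7168 (Pearson r = 0.9743), Pkdrej, which encodes a receptor-like protein of the sperm head (r = 0.9677), and Prcp, a carboxypeptidase gene (r = 0.9658).

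**Figure D1:**
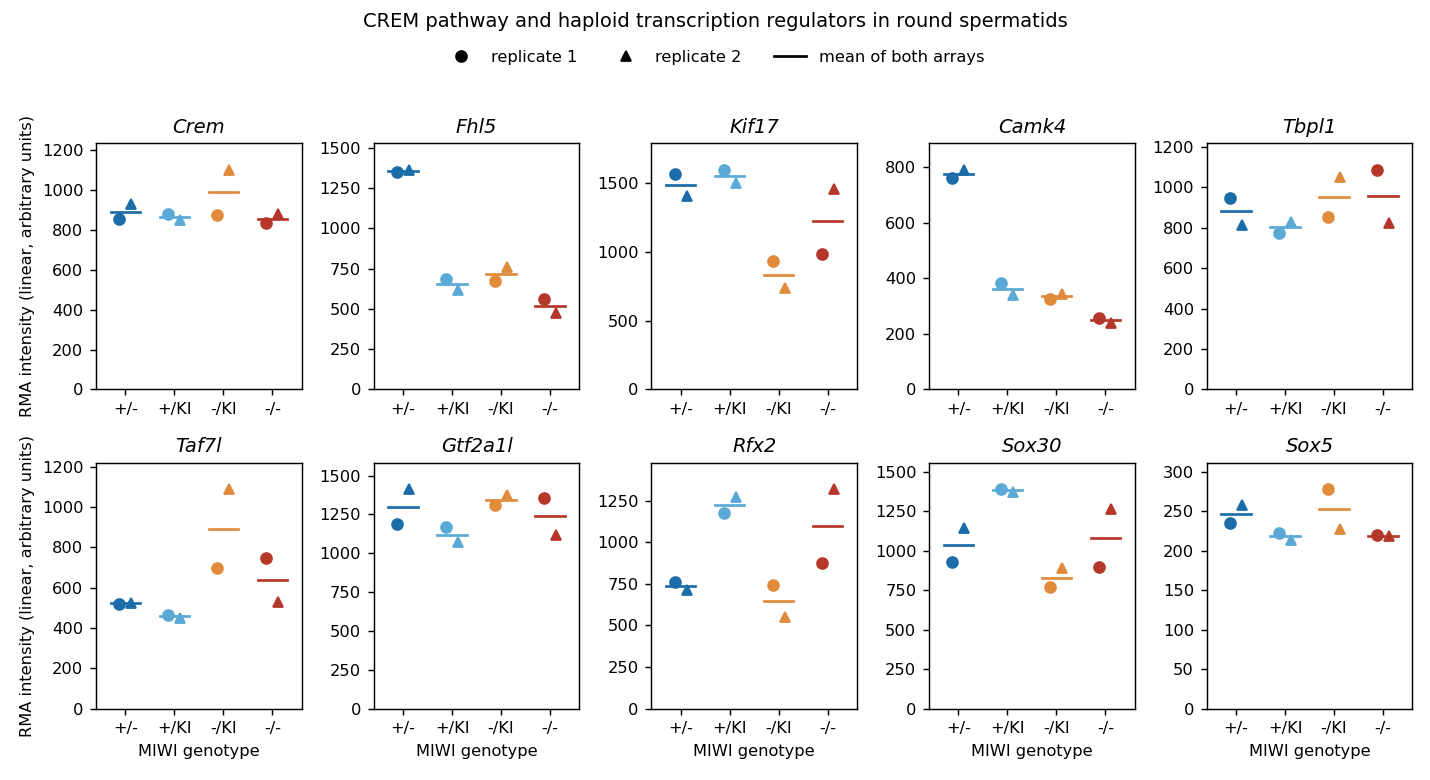
RMA intensity (linear scale from 0) of the 10 genes in each of the 8 arrays, by MIWI genotype. Circles are replicate 1, triangles replicate 2 and lines the mean of both; Fhl5 and Camk4 are high in MIWI +/- alone, while the MIWI -/- replicates lie apart for Kif17, Taf7l, Rfx2 and Sox30.

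Fhl5 and Camk4, which encode the coactivator and a kinase of the CREM pathway, were the members with the largest differences. Fhl5 had an intensity of 1352 and 1364 in MIWI +/-, 688 and 617 in MIWI +/KI, 673 and 762 in MIWI -/KI, and 563 and 475 in MIWI -/-. Both MIWI +/- arrays lay far above the other 6, MIWI -/- was lowest without overlap, and MIWI +/KI and MIWI -/KI overlapped between them. Camk4 had an intensity of 763 and 791 in MIWI +/-, 384 and 340 in MIWI +/KI, 327 and 343 in MIWI -/KI, and 257 and 239 in MIWI -/-. The order of the genotype means was thus the same as for Fhl5 at both ends, and again the genotypes with a knock-in allele overlapped. The 2 genes followed each other across the arrays (Pearson r = 0.98 over 8 arrays, which share their preparations), while neither followed Crem (r = 0.17 for Fhl5 and 0.06 for Camk4).

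In MIWI -/- against MIWI +/-, which asks what loss of MIWI does, Fhl5 fell by 1.39 on the log2 scale (SE 0.15, 2.63-fold lower, adjusted p = 0.00162) and Camk4 fell by 1.65 (SE 0.14, 3.13-fold lower, adjusted p = 0.000667). These were the 2 of 10 members called, both lower, beside 6.13% of all genes called, 2.60% higher and 3.53% lower. The members' median log2 difference was -0.06, against 0.01 over all genes. Both calls held under all 18 alternative settings, with adjusted p up to 0.0290 for Fhl5 and 0.0156 for Camk4. In MIWI -/KI against MIWI +/-, Fhl5 fell by 0.92 (SE 0.15, 1.90-fold lower, adjusted p = 0.0120) and Camk4 fell by 1.21 (SE 0.14, 2.32-fold lower, adjusted p = 0.00327), again 2 of 10 members, beside 6.23% of all genes, 3.11% higher and 3.12% lower. Here the call of Fhl5 was lost without MIWI +/- replicate 1 (adjusted p = 0.111) or replicate 2 (adjusted p = 0.112) and in a fit of the compared groups alone (adjusted p = 0.0511), and that of Camk4 without MIWI +/- replicate 2 (adjusted p = 0.0507).

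The knock-in allele beside a wild-type allele went with lower values of the same pair. In MIWI +/KI against MIWI +/-, the log2 difference was -1.06 for Fhl5 (SE 0.15, interval -1.40 to -0.72) and -1.10 for Camk4 (SE 0.14, interval -1.44 to -0.77), but with an adjusted p of 0.0757 each, none of the 10 members was called. Of all genes limma called 0.0953% here, 0.0251% higher and 0.0702% lower, and 3 members, Fhl5, Camk4 and Rfx2, had an unadjusted p under 0.05, as had 11.7% of all genes. In a fit of the compared groups alone (adjusted p = 0.0147 for both), with array weights (0.00463 and 0.00423) or with only the clusters above the median intensity (0.0301 and 0.0276), Fhl5 and Camk4 passed. These 3 comparisons share the MIWI +/- arrays, the only ones in which both genes were high. Where both genotypes had a knock-in allele, MIWI -/KI differed from MIWI +/KI by 0.14 for Fhl5 (SE 0.15, interval -0.21 to 0.48, adjusted p = 0.697) and by -0.11 for Camk4 (SE 0.14, interval -0.44 to 0.23, adjusted p = 0.753). The effect of losing the wild-type allele was therefore compared directly between mice with and without a knock-in allele. The difference between those effects was 1.53 for Fhl5 (SE 0.21) and 1.54 for Camk4 (SE 0.20), each with an adjusted p of 0.0721; no gene of the table was called (0.00%), and 4 members had an unadjusted p under 0.05 by limma, as had 13% of all genes. It passed for both genes without MIWI -/- replicate 1 (0.0386 and 0.0400) and with the clusters above the median intensity (0.0260 for both), and for Camk4 also without MIWI -/KI replicate 1 (0.0496).

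**Figure D2:**
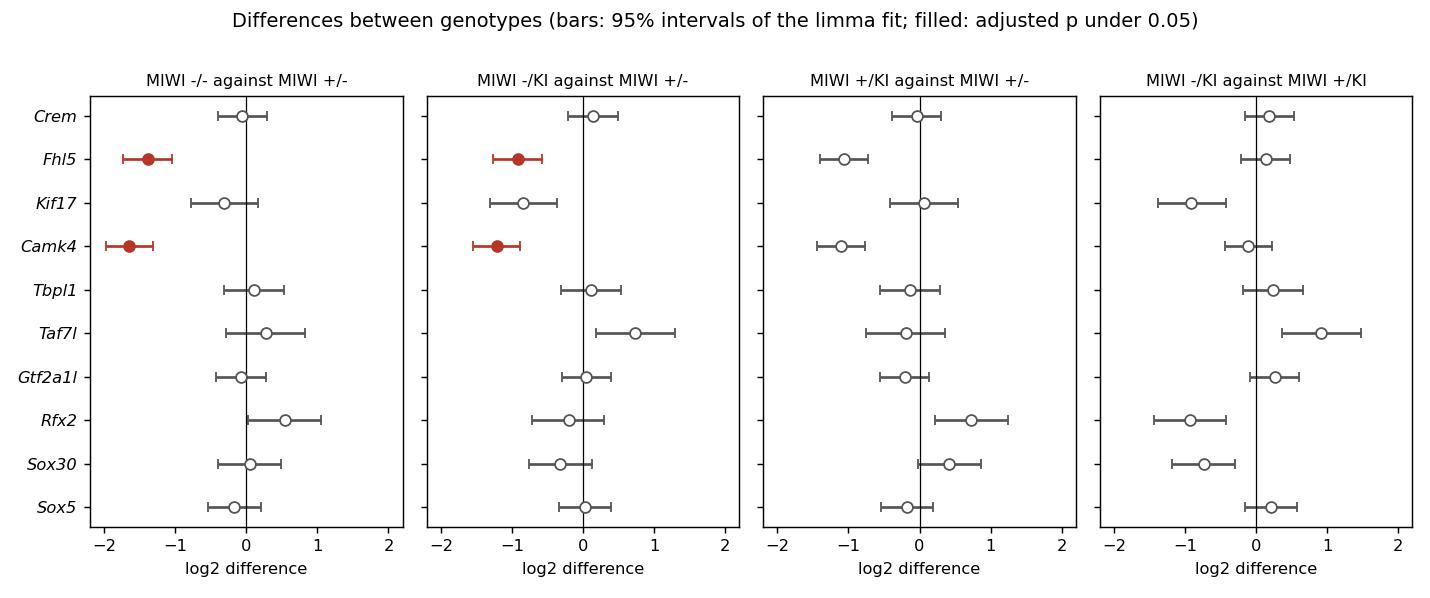
Log2 differences of the 10 genes in 4 comparisons between MIWI genotypes, 2 arrays each, with 95% intervals of the limma fit as bars; filled points passed an adjusted p of 0.05. Fhl5 and Camk4 lie below 0 in all 3 comparisons with MIWI +/- and near 0 in MIWI -/KI against MIWI +/KI, where Kif17, Rfx2 and Sox30 lie lower and Taf7l higher without a call.

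Between MIWI -/KI and MIWI -/-, which sets a knock-in allele beside no intact allele, limma called no gene of the table (0.00%), and hence no member. With an unadjusted p under 0.05 there were 4 of the 10 members, Fhl5 (0.47, SE 0.15), Camk4 (0.43, SE 0.14), Kif17 (-0.54, SE 0.20) and Rfx2 (-0.75, SE 0.22), against 4.55% of all genes. The genes most like Fhl5 over the 8 arrays were the kinesin gene Kif5c (Pearson r = 0.9939), the uncharacterised locus 1700074P13Rik (r = 0.9914) and Cyth1, which encodes a guanine nucleotide exchange factor of ARF proteins (r = 0.9898). Those most like Camk4 were Pdzk1, a PDZ scaffold gene (r = 0.9943), Cep295nl (r = 0.9924) and Pudp (r = 0.9916). Of blood and macrophage markers, 5 of the 6 listed were measured, and their summed intensity was, like Fhl5 and Camk4, highest in MIWI +/- and lowest in MIWI -/-: it was 1981 and 1871 in MIWI +/-, 1441 and 1279 in MIWI +/KI, 1175 and 1031 in MIWI -/KI and 1023 and 993 in MIWI -/-. Aif1 and Alas2, the latter of red cell precursors, were both called lower than in MIWI +/- in each genotype that lacks a wild-type allele. Most of the sum was Aif1, with 1680 and 1578 in MIWI +/- and 789 and 732 in MIWI -/-, while Ptprc, which marks all white blood cells, stayed between 52.2 and 68.6 in all arrays. The macrophage markers went no single way: Adgre1 stood at 0.20 (SE 0.21) in MIWI -/- and 0.37 (SE 0.21) in MIWI -/KI against MIWI +/-, and Cd68 at -0.31 (SE 0.15) and 0.08 (SE 0.15), none of them called. The part of blood cells in the result was not tested.

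Kif17 followed another order. Its intensity was 1566 and 1407 in MIWI +/-, 1599 and 1506 in MIWI +/KI, 933 and 735 in MIWI -/KI, and 988 and 1460 in MIWI -/-. Replicate 2 of MIWI -/- lay with the 4 arrays that have a wild-type allele, and replicate 1 lay with MIWI -/KI. The log2 difference was -0.31 in MIWI -/- against MIWI +/- (SE 0.20, adjusted p = 0.604), -0.84 in MIWI -/KI against MIWI +/- (SE 0.20, adjusted p = 0.0620) and -0.91 in MIWI -/KI against MIWI +/KI (SE 0.20, 1.87-fold lower, adjusted p = 0.0776). The last comparison had calls for 2.43% of all genes, 1.14% higher and 1.29% lower, and for none of the members, with 4 members at an unadjusted p under 0.05 by limma, as were 17.9% of all genes. Taken over both pairs, without against with a wild-type allele, Kif17 fell by 0.61 (SE 0.14, adjusted p = 0.0482), beside Fhl5 (-0.63, SE 0.11, adjusted p = 0.0110) and Camk4 (-0.88, SE 0.10, adjusted p = 0.00197). These 3 of 10 members stand beside 8.26% of all genes called, 4.33% higher and 3.93% lower. For Fhl5 and Camk4 the value is a mean of unlike pairs and describes neither. MIWI -/- against MIWI +/- stood at -1.39 and -1.65, and MIWI -/KI against MIWI +/KI at 0.14 and -0.11. The call of Kif17 was lost in 10 of 17 settings, among them the fit with a replicate block (adjusted p = 0.0687) and each fit without 1 of the 4 arrays of MIWI +/- and MIWI +/KI (adjusted p between 0.130 and 0.198), without MIWI -/- replicate 1 (0.0917) or without MIWI -/KI replicate 2 (0.102). That of Fhl5 was lost without any 1 of the arrays with a wild-type allele (adjusted p between 0.0555 and 0.0874). That of Camk4 held in all 17.

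The stretches upstream of the starts of Kif17 and Fhl5 are shown because CREM acts through the cyclic AMP response element (CRE). These are the called members with an entry read from the RefSeq promoter table (GRCm38.p6). Entries of a single chromosome were left out when the genes named here were searched, but not from the shares of all stretches. An entry was read for 8 of the 10 members. None was read for Crem or Camk4, whether through that omission or for want of an entry, so their stretches were not searched. Each run is the 250 bases before an annotated start, 5′ to 3′ on the gene's strand, with the palindromic CRE (TGACGTCA), the X-box or the SOX motif AACAAT, searched on both strands, in capitals.
Kif17, chr4:138262001-138262250, plus strand: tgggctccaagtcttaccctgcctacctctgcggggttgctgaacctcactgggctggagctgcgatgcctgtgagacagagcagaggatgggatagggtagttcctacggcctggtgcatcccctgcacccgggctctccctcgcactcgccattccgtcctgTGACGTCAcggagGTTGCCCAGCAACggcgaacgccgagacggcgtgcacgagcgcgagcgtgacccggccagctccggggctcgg
Fhl5, first start, chr4:25242853-25243102, minus strand: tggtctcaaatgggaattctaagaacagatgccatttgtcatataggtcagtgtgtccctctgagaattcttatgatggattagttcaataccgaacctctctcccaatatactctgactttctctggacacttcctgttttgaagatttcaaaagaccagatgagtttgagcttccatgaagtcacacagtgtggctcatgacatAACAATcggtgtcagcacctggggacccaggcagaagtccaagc
Fhl5, second start, chr4:25242267-25242516, minus strand: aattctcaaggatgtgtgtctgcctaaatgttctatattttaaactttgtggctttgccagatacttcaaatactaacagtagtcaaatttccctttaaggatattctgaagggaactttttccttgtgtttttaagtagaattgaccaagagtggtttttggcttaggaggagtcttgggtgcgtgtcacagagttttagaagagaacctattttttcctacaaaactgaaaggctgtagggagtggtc
The CRE of the Kif17 stretch begins 86 bases before the start. It was the 1 full CRE among the members with an entry read, and 1.55% of the 32851 stretches of this length in the table held one. The CRE core TGACG, which on both strands lies within the full CRE, was found in Kif17 there alone, in Rfx2 224 bases before its start, and in 17.8% of all stretches. An AACAAT lies in the first Fhl5 stretch, 44 bases before the start, and 9.42% of all stretches held one. RFX factors bind the X-box, which was searched in its common form with 0 to 3 bases between its arms, a form chosen after the Kif17 stretch had been seen. Of the members with an entry read, Kif17 alone held one, 73 bases before its start and also in capitals, as did 1.29% of all stretches. A narrower form searched first was in none of the members' stretches read and in 0.374% of all. A match here is a match of letters in this window and shows no binding.

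Of the basal factors, none was called in any comparison. Tbpl1, a TBP relative that works with TFIIA, had an intensity of 948 and 813 in MIWI +/-, 776 and 828 in MIWI +/KI, 855 and 1050 in MIWI -/KI, and 1087 and 823 in MIWI -/-. All genotypes overlapped with MIWI +/-, and the difference of MIWI -/- from MIWI +/- was 0.11 (SE 0.18, interval -0.31 to 0.53). Gtf2a1l, the TFIIA subunit of germ cells that pairs with TBPL1, had 1187 and 1412 in MIWI +/-, 1166 and 1073 in MIWI +/KI, 1313 and 1378 in MIWI -/KI, and 1358 and 1116 in MIWI -/-. Its arrays of MIWI -/- and MIWI +/- overlapped as well (-0.07, SE 0.15, interval -0.42 to 0.27), and its highest array was 1.32-fold above its lowest. Taf7l varied more than either. Its intensity was 521 and 527 in MIWI +/-, 466 and 451 in MIWI +/KI, 696 and 1089 in MIWI -/KI, and 750 and 532 in MIWI -/-. All 4 arrays without a wild-type allele lay above the 4 with one, MIWI -/- replicate 2 by little. The log2 difference without against with a wild-type allele was 0.60 (SE 0.17, adjusted p = 0.0887), and in MIWI -/KI against MIWI +/KI it was 0.92 (SE 0.24, 1.90-fold higher, adjusted p = 0.107). Without MIWI -/KI replicate 1 these values were 0.76 (adjusted p = 0.0156) and 1.25 (adjusted p = 0.0206), and Taf7l passed in both.

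Rfx2 and Sox30 had their highest genotype mean in MIWI +/KI, although the brightest single array for Rfx2 was MIWI -/- replicate 2. Rfx2 had an intensity of 762 and 715 in MIWI +/-, 1176 and 1272 in MIWI +/KI, 743 and 552 in MIWI -/KI, and 877 and 1318 in MIWI -/-. Without a knock-in allele both arrays lacking the wild-type allele lay above both arrays with it, and with a knock-in allele both lay below. The log2 difference was 0.54 in MIWI -/- against MIWI +/- (SE 0.22, adjusted p = 0.277), 0.73 in MIWI +/KI against MIWI +/- (SE 0.22, adjusted p = 0.258) and -0.93 in MIWI -/KI against MIWI +/KI (SE 0.22, adjusted p = 0.0868). Sox30, which is needed for spermatids to progress, had 926 and 1146 in MIWI +/-, 1388 and 1373 in MIWI +/KI, 768 and 891 in MIWI -/KI, and 897 and 1261 in MIWI -/-. The MIWI +/KI arrays were the 2 highest and the MIWI -/KI arrays the 2 lowest, and MIWI -/KI against MIWI +/KI stood at -0.74 (SE 0.19, adjusted p = 0.109). Sox5, of which the testis makes a short form, had 235 and 258 in MIWI +/-, 222 and 214 in MIWI +/KI, 278 and 228 in MIWI -/KI, and 220 and 218 in MIWI -/-. No difference of Sox5 exceeded 0.21 between genotypes in size, and its 8 arrays lay within 1.30-fold.

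**Figure D3:**
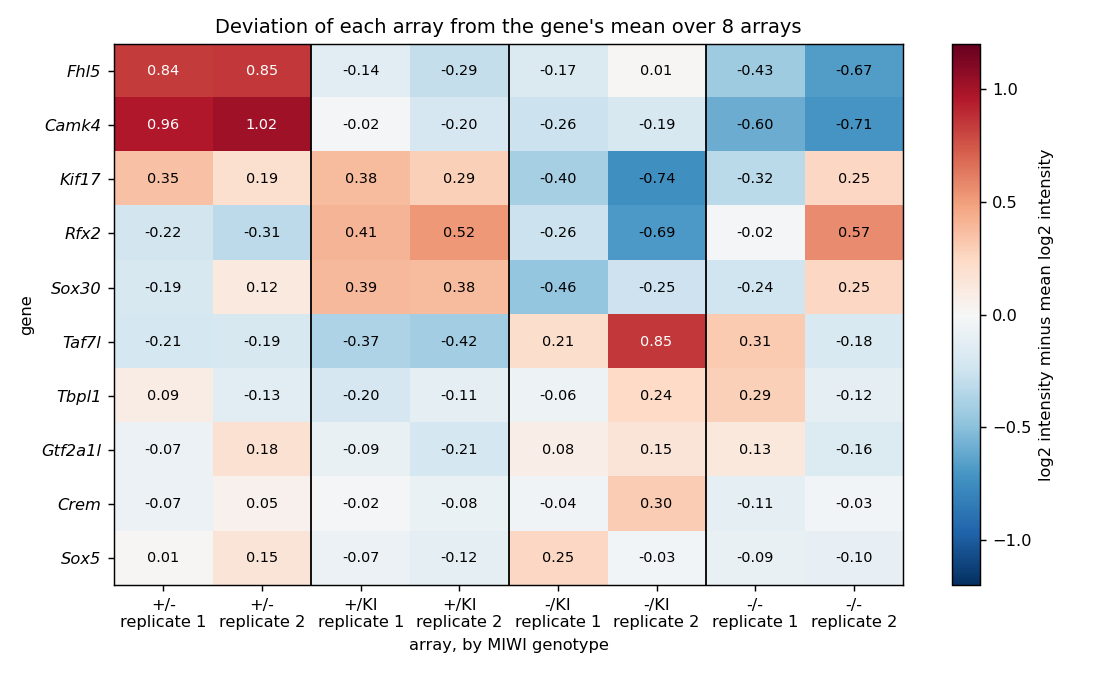
Deviation of each array's log2 intensity from the gene's mean over the 8 arrays, for the 10 genes, by MIWI genotype and replicate; red is above and blue below the mean. MIWI -/- replicate 2 is above the mean, as the MIWI +/KI arrays are, for Kif17, Rfx2 and Sox30, and for Taf7l it is near the MIWI +/- arrays, whereas for Fhl5 and Camk4 both MIWI -/- arrays are the lowest.

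The replicates of MIWI -/- parted in several members. Replicate 2 minus replicate 1 was 0.59 on the log2 scale for Rfx2, 0.56 for Kif17, 0.49 for Sox30 and -0.50 for Taf7l, against a median absolute difference of 0.18 over all genes; for Rfx2, 95.6% of all genes had a smaller difference. For Camk4 it was -0.10 and for Crem 0.08. In MIWI -/KI the difference between replicates was 0.64 for Taf7l and -0.43 for Rfx2, against a median of 0.28. Across the 8 arrays Taf7l ran opposite to Kif17 (Pearson r = -0.97), and Rfx2 ran with Sox30 (r = 0.77) and opposite to Gtf2a1l (r = -0.84). These are descriptions over 8 arrays that share their preparations.

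Sums of markers of other testicular cells were set beside these genes. Of spermatocyte markers, 11 of the 12 listed were measured. Their summed intensity was 6880 and 6676 in MIWI +/-, 6400 and 6542 in MIWI +/KI, 6984 and 9055 in MIWI -/KI, and 8263 and 6963 in MIWI -/-. It was thus highest in MIWI -/KI replicate 2 and MIWI -/- replicate 1, which were also the 2 arrays highest in Taf7l. Sycp3, of the synaptonemal complex, had 1041 and 867 in those arrays and between 361 and 634 in the others. The 4 Leydig cell markers measured of 6 summed to between 253 and 373 in the arrays with a wild-type allele, 529 and 561 in MIWI -/KI, and 637 and 323 in MIWI -/-. The 9 Sertoli cell markers measured of 10 summed to between 1191 and 1446 with a wild-type allele and between 810 and 1096 without one, and 1 of them, Wt1, was called lower without a wild-type allele (-0.56, SE 0.12, adjusted p = 0.0349). Sums of 8 spermatogonia markers lay between 1011 and 1117, and those of 6 peritubular and vascular markers between 607 and 837, all of which were measured. Acta2, of smooth muscle and peritubular cells, was called higher in MIWI -/KI than in MIWI +/KI (1.23, SE 0.15, adjusted p = 0.00950) and in MIWI -/- than in MIWI +/- (0.68, SE 0.15, adjusted p = 0.0445). No other gene of that list was called in either. In the first, 3 of the 6 stood higher and 3 lower, with Myh11 at -0.18 (SE 0.15) and Tagln at -0.10 (SE 0.16). In the second, 4 stood higher and 2 lower, with Myh11 at -0.28 (SE 0.15) and Tagln at 0.06 (SE 0.16). No marker of spermatocytes, spermatogonia or Leydig cells was called by limma in any comparison, with 0 to 3 of a list at an unadjusted p under 0.05. Without against with a wild-type allele, 3 of 11 spermatocyte and 3 of 4 Leydig cell markers had such a p, as had 20.6% of all genes. In MIWI -/KI against MIWI +/KI, 3 of 4 Leydig cell markers had one, as had 17.9% of all genes. All 4 Leydig cell markers stood higher in both comparisons. The part of these cells in the results for Taf7l, Kif17, Rfx2 and Sox30 was not tested.

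Part of a list of genes that CREM drives was lower in MIWI -/-. In this list of 15 known CREM targets, chosen with earlier results of these data known, 10 were lower in MIWI -/- than in MIWI +/- and none higher, beside 3.53% of all genes called lower, with a median log2 difference of -0.95 against 0.01 over all genes. Tnp1, whose transition protein replaces histones in spermatids, had an intensity of 3820 and 3333 in MIWI +/-, 1717 and 1483 in MIWI +/KI, 574 and 511 in MIWI -/KI, and 451 and 244 in MIWI -/-. The genotypes did not overlap, and the order of their means was that of Camk4. In MIWI -/- Tnp1 fell by 3.43 (SE 0.26, adjusted p = 0.000360) and Prm2, which encodes a protamine, fell by 2.85 (SE 0.18, adjusted p = 0.000145). Gapdhs, the glycolytic enzyme of sperm, fell by 1.30 (SE 0.19, adjusted p = 0.00800), and Ace, whose testis form starts at an inner promoter, fell by 1.01 (SE 0.19, adjusted p = 0.0253). Members that did not pass included Ldhc, the lactate dehydrogenase of germ cells (-0.12, SE 0.13), Pdha2 (-0.08, SE 0.19) and the cytochrome c gene Cyct (0.40, SE 0.22). The 10 became 6 without MIWI +/- replicate 1 and 4 without MIWI +/- replicate 2.

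Of the 15 targets, 8 fell in MIWI -/KI against MIWI +/-, and 4 without either MIWI +/- array. Against MIWI +/KI, 6 fell in MIWI -/KI, with a median of -0.49, among them Prm2 (-1.98, SE 0.18, adjusted p = 0.00260), Tnp2 (-1.54, SE 0.20, adjusted p = 0.0124) and Gapdhs (-1.31, SE 0.19, adjusted p = 0.0188). Fhl5 and Camk4 were not called there. Of all genes, limma called 1.29% lower in that comparison and 3.12% lower in MIWI -/KI against MIWI +/-. Those 6 became 3 without either MIWI +/- array, without MIWI -/KI replicate 2 or in a fit of the compared groups alone, and 1 without either MIWI +/KI array. In MIWI +/KI against MIWI +/- limma called none of the targets, with 7 at an unadjusted p under 0.05, as were 11.7% of all genes. All 15 nevertheless stood lower in that comparison, between -1.16 and -0.06. There 5 passed in a fit of the compared groups alone or with array weights, and 1 among clusters above the median intensity. Of the 12 targets with an entry read from the promoter table, none had a full CRE in the 250 bases before a listed start. Of all stretches, 1.55% held one. The core TGACG was found in 1 of these targets, Ldhc, and in 17.8% of all stretches. Only these exact letters were searched, so other forms of the element would be missed.

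**Figure D4:**
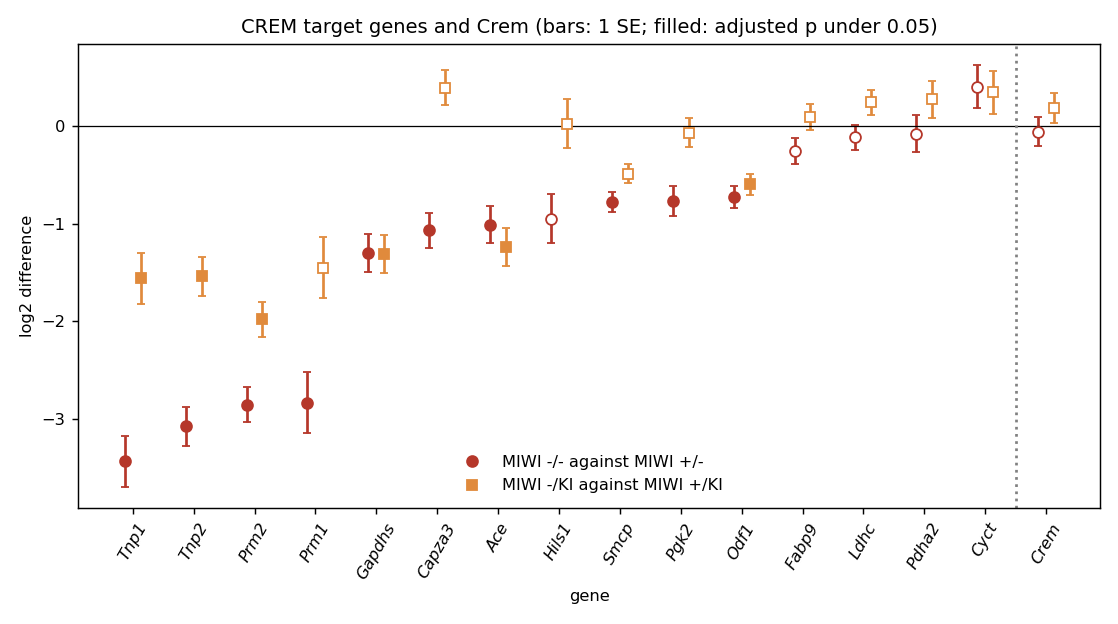
Log2 differences of 15 CREM target genes and of Crem (right of the dotted line) in MIWI -/- against MIWI +/- (circles) and MIWI -/KI against MIWI +/KI (squares), 2 arrays per genotype; bars are 1 SE and filled symbols passed an adjusted p of 0.05. In MIWI -/- the targets range from -3.43 for Tnp1 to 0.40 for Cyct, and Crem is at -0.06.

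Relatives and partners of these factors were read beside the 2.60% of all genes called higher in MIWI -/- against MIWI +/-. The calls of the CREB and ATF group and of the general transcription factors are near that share. Of 27 genes measured of the CREB and ATF family, their coactivators and calmodulin-dependent signalling, 1 rose in MIWI -/- and none fell. It was Crebbp, which encodes the histone acetyltransferase CBP, with an intensity of 464 and 515 in MIWI +/-, 852 and 860 in MIWI +/KI, 700 and 952 in MIWI -/KI, and 853 and 1063 in MIWI -/- (0.96, SE 0.19, adjusted p = 0.0267). Its MIWI +/- arrays were the 2 lowest, the reverse of Camk4. Creb1 (-0.19, SE 0.17) and Fhl4, another LIM-only gene of the testis (-0.22, SE 0.14), were not called. Of 20 general transcription factors 1 rose, Taf3, a TFIID subunit gene with 290 and 288 in MIWI +/-, 466 and 483 in MIWI +/KI, 435 and 434 in MIWI -/KI, and 483 and 542 in MIWI -/- (0.83, SE 0.14, adjusted p = 0.0149). Tbp (0.21, SE 0.13), Gtf2a1 (0.15, SE 0.16) and Taf7 (0.04, SE 0.25), the widely expressed counterparts of the germ cell factors, were not called. The calls of Crebbp and Taf3 were both lost without any 1 of the MIWI +/- and MIWI +/KI arrays and without MIWI -/- replicate 2 (adjusted p between 0.0741 and 0.194 for Crebbp and between 0.0629 and 0.139 for Taf3).

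None of 26 other RFX and SOX genes was called in any comparison by limma. Rfx1, a paralogue of Rfx2, had an intensity of 444 and 472 in MIWI +/-, 878 and 869 in MIWI +/KI, 472 and 361 in MIWI -/KI, and 528 and 1006 in MIWI -/-. As for Rfx2, both MIWI +/KI arrays and MIWI -/- replicate 2 were the 3 highest. Between MIWI -/KI and MIWI +/KI it stood at -1.08 (SE 0.28, adjusted p = 0.110), and Rfx3, which acts in ciliated cells, at -0.13 (SE 0.24). Sox6 and Sox13, the closest relatives of Sox5, stood at -0.09 (SE 0.14) and -0.11 (SE 0.22) in MIWI -/- against MIWI +/-. Of 10 ciliary genes known as targets of RFX factors, 2 were called in MIWI -/- against MIWI +/-. Beside them stand 6.13% of all genes called, 2.60% higher and 3.53% lower. Ift88, of the intraflagellar transport complex, rose (0.69, SE 0.13, adjusted p = 0.0214) and Bbs5, of the BBSome, fell (-0.65, SE 0.14, adjusted p = 0.0376). Both calls were lost without any 1 of the 6 arrays of MIWI +/-, MIWI +/KI and MIWI -/- and in a fit of the compared groups alone (adjusted p between 0.0533 and 0.174 for Ift88 and between 0.0723 and 0.279 for Bbs5). Of 12 other regulators of spermatid transcription, none was called in any comparison; Kdm3a, a histone demethylase that acts on Tnp1 and Prm1, stood at 0.19 (SE 0.22) and Brdt, a testis bromodomain gene, at 0.04 (SE 0.17) in MIWI -/- against MIWI +/-.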

How the data were processed

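Expression was measured on 8 arrays, 2 for each of 4 genotypes. Per the submitters' processing notes the authors used RMA; its version and the genome build are not given in the sources used here. The authors deposited 1 linear intensity per transcript cluster, and their log2 was taken before any test. In 8 cells, none of a member, a whole number more than 100-fold above the row's other arrays was set to missing. Genes were named through the platform annotation, each on its single-symbol cluster with the highest mean; 21789 of 35512 clusters had 1 symbol, 1621 several and 12102 none, and each member had 1 cluster.

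One limma 3.58.1 fit (R 4.3.3) with a mean per genotype over all 8 arrays and an intensity trend gave every comparison, with two-sided p-values adjusted by Benjamini-Hochberg over all clusters, a threshold of 0.05 and moderated standard errors (SE). Shares of all genes called count 1 cluster per gene. Cluster intensities are not compared between genes, except that the marker sums add them, so their brightest clusters weigh most. The fit was tested on simulated data. The members and the 13 other gene lists were chosen with earlier results of these data known. Named genes are the members, Piwil1, for Crem, Fhl5 and Camk4 the 3 genes above the median intensity most like each by Pearson r, and per list the called genes with the largest differences in MIWI -/- and the members' direct counterparts; further list genes and markers were named after their values were seen. Alternatives left out each array, used replicate blocks, array weights, only the groups compared, no trend, further normalization, brighter clusters, the mean of a gene's clusters, or other treatment of the 8 cells.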

Additional observations from a re-analysis of the deposited data

Results flagged for a closer look

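Rfx2 differed in direction between the backgrounds in every array, a pattern whose share among all genes was not counted. Loss of the wild-type allele went with higher values in both arrays without a knock-in allele and with lower values in both arrays with one, and the difference between these effects was -1.48 on the log2 scale (SE 0.31, adjusted p = 0.133 by limma), so it did not pass. Without MIWI -/- replicate 1 it was -1.77 (adjusted p = 0.0441).

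Sox5 showed the opposite order, lower in both MIWI -/- arrays than in MIWI +/- and higher in both MIWI -/KI arrays than in MIWI +/KI. The difference between the effects was 0.38 (SE 0.23, adjusted p = 0.591 by limma), which did not pass. Without the share among all genes, opposed arrays of this kind are not read as particular to Rfx2 or Sox5.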

How the results depend on the processing

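Of 1240 member values under alternatives, 1190 kept their side of the threshold, 18 lost and 32 gained a call, and none changed direction with a call; 27 uncalled values changed sign. The 2 members called in MIWI -/- against MIWI +/- stayed 2 in every alternative. In MIWI -/KI against MIWI +/- the count was 1 in a fit of the compared groups alone, and between 0 (without MIWI +/- replicate 2) and 4 (without MIWI -/KI replicate 1) when 1 array was left out. Against MIWI +/KI, the count in MIWI -/KI went from 0 to 4 among clusters above the median intensity and to between 0 and 3 when 1 array was left out, 3 without MIWI -/KI replicate 1 and 2 without either MIWI -/- array. In MIWI +/KI against MIWI +/- it went from 0 to 3 in a fit of the compared groups alone or with array weights and to 2 among clusters above the median intensity. Without against with a wild-type allele it was 3, and 1 without any 1 array of MIWI +/- or MIWI +/KI, with a range of 1 to 4 over arrays left out. The difference between the effects of losing the wild-type allele with and without a knock-in allele had 0 calls, 2 among clusters above the median intensity and between 0 and 3 with 1 array left out, 3 without MIWI -/- replicate 1. No member passed between MIWI -/KI and MIWI -/- under any alternative. Above the median there are fewer clusters, over which p-values are adjusted. For the other changes the cause was not tested. A group left with 1 array was assumed to vary like the others. Replicate numbers did not pair the arrays: replicate 1 minus replicate 2 correlated between genotypes with r between -0.258 and 0.297. With the replicate number as a block the count without against with a wild-type allele was 2 in place of 3, and no other count of members changed.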
